A study of Homo sapiens with 9 samples.

Results

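The 9 genes described here encode receptors through which haematopoietic growth factors act on myeloid cells. They are the stem cell factor receptor KIT, the FLT3 ligand receptor FLT3, the M-CSF receptor CSF1R, the alpha chains CSF2RA (GM-CSF), IL3RA (IL-3) and IL5RA (IL-5), the beta chain CSF2RB that these 3 alpha chains share, the G-CSF receptor CSF3R and the erythropoietin receptor EPOR. They were chosen by gene symbol from 25680 symbols, and each was represented by its RefSeq row with the highest total count. Of the 9 genes, 7 had counts high enough to be tested among 14199 genes, and CSF2RA and IL3RA did not.

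RNA was sequenced from SKNO-1, a human acute myeloid leukaemia cell line with the RUNX1-RUNX1T1 fusion, which the labels write as AML-ETO. There were 3 groups of 3 samples. EV is the control, a term the labels leave unexplained and the study describes as a control shRNA; SH2 and SH3 are cells with either of 2 different shRNAs against ASXL2, a chromatin regulator. All groups carried the fusion, and per the study's methods the line is cultured with GM-CSF. The study calls the samples of a group biological replicates. In each group they are numbered 1, 13 and 25, and what the numbers mean is not given in the sources used here.

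KIT, FLT3 and CSF1R are receptor tyrosine kinases: the ligand pairs receptor molecules, which then phosphorylate each other and recruit adaptors such as GRB2 and PI3 kinase. The other receptors have no kinase of their own and signal through bound Janus kinases, among them JAK2, and through STAT proteins such as STAT5. CBL proteins, SOCS proteins and phosphatases end the signal. KIT and FLT3 are known for their expression on blood progenitors and leukaemic blasts, CSF3R and CSF1R for the neutrophil and the monocyte line, IL5RA for eosinophils and basophils, and EPOR for red cell precursors.

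The 9 libraries held 27714431 to 35406063 counts with 1 row per gene, so that a count of 3 corresponded to a level of 0.0847 to 0.108 CPM, the count scaled to library size. The targeted gene ASXL2 was at 67.9, 67.9 and 74.7 CPM in EV, at 30.4, 36.2 and 36.2 in SH2 and at 26.9, 29.1 and 41.1 in SH3, for numbers 1, 13 and 25 in turn, so that all 6 knockdown samples lay below all EV samples, at 39.7% to 55.1% of the EV sample of the same number. The myeloid markers were present, with 183737 to 338581 counts of MPO and 3098 to 4767 of RUNX1T1, a partner of the fusion, whereas CD34, a marker of blood progenitors, had only 2 to 10. Of 9 markers of other cell types, CD3E, HBB and COL1A2 were at 0 in all samples, CD3D, CD2, HBA1, EPCAM and COL1A1 had at most 5 counts in a sample, and PECAM1 had 48 to 122. SH3 number 1 differed most from the other samples of its group, and several values are also given without it.

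CSF2RA and IL3RA lie in the first pseudoautosomal region, the stretch of the X chromosome that is repeated on the Y chromosome, at chrX:1387693-1429274 and chrX:1455509-1501582 on GRCh37. CSF2RA had 1 count in SH2 number 13 and 0 in the other 8 samples, and IL3RA had 0 in all 9. The other genes of this region were no different. Of the 15 genes listed for it, 8 were at 0 in every sample, no gene exceeded 2 counts in a sample, and the 15 genes had 19 counts in total over all samples. These included SLC25A6, a mitochondrial ADP/ATP carrier that most cells express at high levels, with 5 counts, and CD99, a broadly expressed surface protein, with 6.

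The RefSeq promoter table (GRCh38.p14) shows how alike the copies are: of the 13 genes with an entry on both chromosomes, 11 had the same sequences on X and Y. SHOX (1 entry on X, 2 on Y) and ZBED1 (2 on X, 1 on Y) have unequal numbers of entries, so they could not count as the same. The last 60 bases before the start sites of CSF2RA and IL3RA are printed for both chromosomes to show how alike the copies are there. These bases lie before the transcript, so reads of its RNA do not come from them. The promoters are on GRCh38.p14, while the counts are on hg19.
CSF2RA on X, chrX:1268754-1268813, plus strand: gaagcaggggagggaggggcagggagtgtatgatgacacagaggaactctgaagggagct
CSF2RA on Y, chrY:1268754-1268813, plus strand: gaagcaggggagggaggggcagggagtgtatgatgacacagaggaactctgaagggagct
IL3RA on X, chrX:1336725-1336784, plus strand: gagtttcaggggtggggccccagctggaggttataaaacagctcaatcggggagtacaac
IL3RA on Y, chrY:1336725-1336784, plus strand: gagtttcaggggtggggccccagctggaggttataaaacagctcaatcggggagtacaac
How reads with 2 positions were treated in counting is not given in the sources used here, and its part in these counts was not tested. The near-zero counts of CSF2RA and IL3RA therefore say nothing on whether the cells express the receptors for GM-CSF and IL-3, although CSF2RB, the chain they need to signal, was well covered at 2972 to 4566 counts.

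Per kilobase of the canonical transcript, the mean level in EV was 74.8 CPM for CSF3R, 69.2 for KIT, 25.6 for CSF2RB, 11.7 for IL5RA, 7.95 for FLT3, 3.22 for EPOR and 0.422 for CSF1R. The ranges over the 3 EV samples overlapped for CSF3R (57.8 to 93.7) and KIT (53.3 to 81.4), and again for IL5RA (9.40 to 14.9) and FLT3 (5.66 to 9.50). The other neighbours in this order did not overlap. The line therefore held abundant transcripts of the G-CSF and stem cell factor receptors, and CSF1R transcripts were rare, with 35 to 117 counts in a sample.

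The ligands of these receptors were scarce. IL3 and IL5 had no counts, CSF2, which encodes GM-CSF, had 1 count in a single sample, and CSF3, EPO and IL34 had at most 5, 4 and 2 counts in a sample. Only KITLG (stem cell factor), FLT3LG and CSF1 (M-CSF) of the 9 ligand genes could be tested. KITLG lay between 1.77 and 4.11 CPM, FLT3LG between 1.48 and 2.38 and CSF1 between 0.200 and 0.613.

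The sequences just before the start sites differ between the receptors. RefSeq promoters (GRCh38.p14) were found for 8 of the 9 genes, all but CSF2RB, and the 250 bases before each start were searched on both strands for 4 motifs of blood cell regulators, none of which contains another. The letters TGTGGT, the core that RUNX factors bind, occurred in 11% of all 35116 promoters of that table. The letters GAGGAA, the core for PU.1, a regulator of the myeloid lineage, occurred in 23.6% of them. The letters AGATAA, the core for GATA factors, occurred in 9.17% of them. The letters TGACTCA, the site of AP-1, occurred in 4.2% of them. Those of 4 genes are printed: CSF3R, the receptor that differed with knockdown under the replicate block, CSF1R, whose level moved most with the sample number, and KIT and FLT3, whose levels followed each other most closely. For CSF1R and CSF3R, which have 2 start sites each in the table, the one with more matches is shown. Capitals mark the matches, on either strand.
CSF3R promoter, chr1:36482914-36483163, minus strand: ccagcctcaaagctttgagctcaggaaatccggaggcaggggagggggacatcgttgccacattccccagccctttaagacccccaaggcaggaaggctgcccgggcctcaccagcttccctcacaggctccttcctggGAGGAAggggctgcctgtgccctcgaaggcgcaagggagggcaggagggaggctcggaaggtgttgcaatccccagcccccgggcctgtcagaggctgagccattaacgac
CSF1R promoter, chr5:150086555-150086804, minus strand: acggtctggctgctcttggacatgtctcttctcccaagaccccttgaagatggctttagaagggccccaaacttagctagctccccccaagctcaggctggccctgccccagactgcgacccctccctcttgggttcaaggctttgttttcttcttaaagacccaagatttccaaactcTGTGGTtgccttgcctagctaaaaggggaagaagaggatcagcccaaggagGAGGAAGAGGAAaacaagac
FLT3 promoter, chr13:28100577-28100826, minus strand: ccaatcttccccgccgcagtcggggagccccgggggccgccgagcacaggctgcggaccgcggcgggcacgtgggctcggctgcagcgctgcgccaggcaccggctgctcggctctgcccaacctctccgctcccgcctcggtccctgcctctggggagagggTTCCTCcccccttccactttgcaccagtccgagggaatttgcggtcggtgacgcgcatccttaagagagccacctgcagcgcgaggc
KIT promoter, chr4:54657707-54657956, plus strand: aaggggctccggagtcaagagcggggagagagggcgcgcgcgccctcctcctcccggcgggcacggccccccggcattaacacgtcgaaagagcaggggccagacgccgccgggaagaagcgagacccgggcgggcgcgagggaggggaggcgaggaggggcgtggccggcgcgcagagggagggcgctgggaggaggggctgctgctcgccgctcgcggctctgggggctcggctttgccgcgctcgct
The CSF1R stretch held 1 RUNX match and 2 PU.1 matches next to each other, while its other start site had 1 AP-1 match. CSF3R and FLT3 had 1 PU.1 match each, and the other CSF3R start site had none. No match to these letters was found for KIT, whose stretch is 76.4% G and C, for IL5RA or for IL3RA. EPOR had 1 GATA match and CSF2RA 2 PU.1 matches. A match of 6 or 7 letters describes the sequence and is no evidence of a bound factor.

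The design asks first whether depletion of ASXL2 changed the receptors. Under the edgeR quasi-likelihood fit without a replicate block, none of the 7 tested receptors passed an adjusted p of 0.05 in SH2 against EV, in SH3 against EV, in the mean of both against EV or in SH3 against SH2, and the same held for 0% of the 14199 genes in each comparison. At an unadjusted p under 0.05 the count of receptors was also 0, against 5.37%, 5.09%, 6.63% and 2.06% of all genes. DESeq2 without the block called 21, 19, 44 and 11 genes and again no receptor. The targeted gene ASXL2 was not called by edgeR without the block either, at -1.03 in SH2, -1.12 in SH3 and -1.08 in their mean. DESeq2 without the block and edgeR with it called ASXL2 in each of these. The lack of receptor calls in the edgeR fit without the block therefore does not show that the receptors were unchanged. The median log2 fold change of the tested receptors was 0.027 for the mean of both shRNAs, beside 0.012 over all genes.

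The samples of 1 number deviated together from their group means, so the fit with the number as a replicate block is given where it changed a call. It called 0.282%, 0.416%, 1.1% and 0.106% of all genes in the same 4 comparisons, which is 40, 59, 156 and 15 genes. These shares depended on single samples: with 1 sample left out the counts ran from 0 to 1604, 1 to 368, 2 to 1755 and 0 to 257. The highest count came without SH3 number 1 in the first 3 comparisons and without SH3 number 13 in the last, where it was 103 without SH3 number 1. Among the receptors it called CSF3R alone, in the mean of both shRNAs, where 0.845% of all genes were called lower.

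CSF3R (NM_156039; chr1:36931644-36948879, minus strand, GRCh37 as for all gene positions here), which drives the production and function of neutrophils, was lower in the knockdown cells when samples were compared by number. Its level was 282, 219 and 174 CPM in EV at numbers 1, 13 and 25, 234, 141 and 124 in SH2, and 207, 152 and 147 in SH3. Each of the 6 knockdown samples lay below the EV sample of its number, at 64.3% to 84.8% of it, and 4 of the 6 lay below all 3 EV samples, so the groups overlapped. In RNA from a whole culture, fewer cells with a transcript and less of it per cell cannot be told apart. The log2 fold change for the mean of both shRNAs was -0.43 with or without the block. What changed was its error: the SE was 0.08 with the block (edgeR adjusted p = 0.0385) and 0.22 without it (edgeR adjusted p = 0.806).

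For the shRNAs taken singly, CSF3R differed in the blocked fit by -0.46 in SH2 (SE 0.09, edgeR adjusted p = 0.0738) and by -0.41 in SH3 (SE 0.09, edgeR adjusted p = 0.0786). The call in the mean of both was close to its limit. It was kept in 3 of 9 fits that left out 1 sample, those without SH3 number 1, 13 or 25 (edgeR adjusted p = 0.0039, 0.0497 and 0.0465), and lost in the other 6, those without an EV or SH2 sample, with adjusted p up to 0.177. The blocked fold change itself stayed between -0.49 and -0.36 in these 9 fits, while without the block it ranged from -0.59 to -0.23, the smallest being without EV number 1. In the fit without SH3 number 1, where the adjusted p of CSF3R was lowest, 12.3% of all genes were called. A correction for transcript length within the blocked fit gave -0.45 (edgeR adjusted p = 0.0620). With the samples numbered 13 and 25 alone the fold change was -0.48 without the block (edgeR adjusted p = 0.639). It was -0.47 with the block (edgeR adjusted p = 0.00138), in a fit chosen after seeing the data that called 2.63% of all genes.

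**Figure D1:**
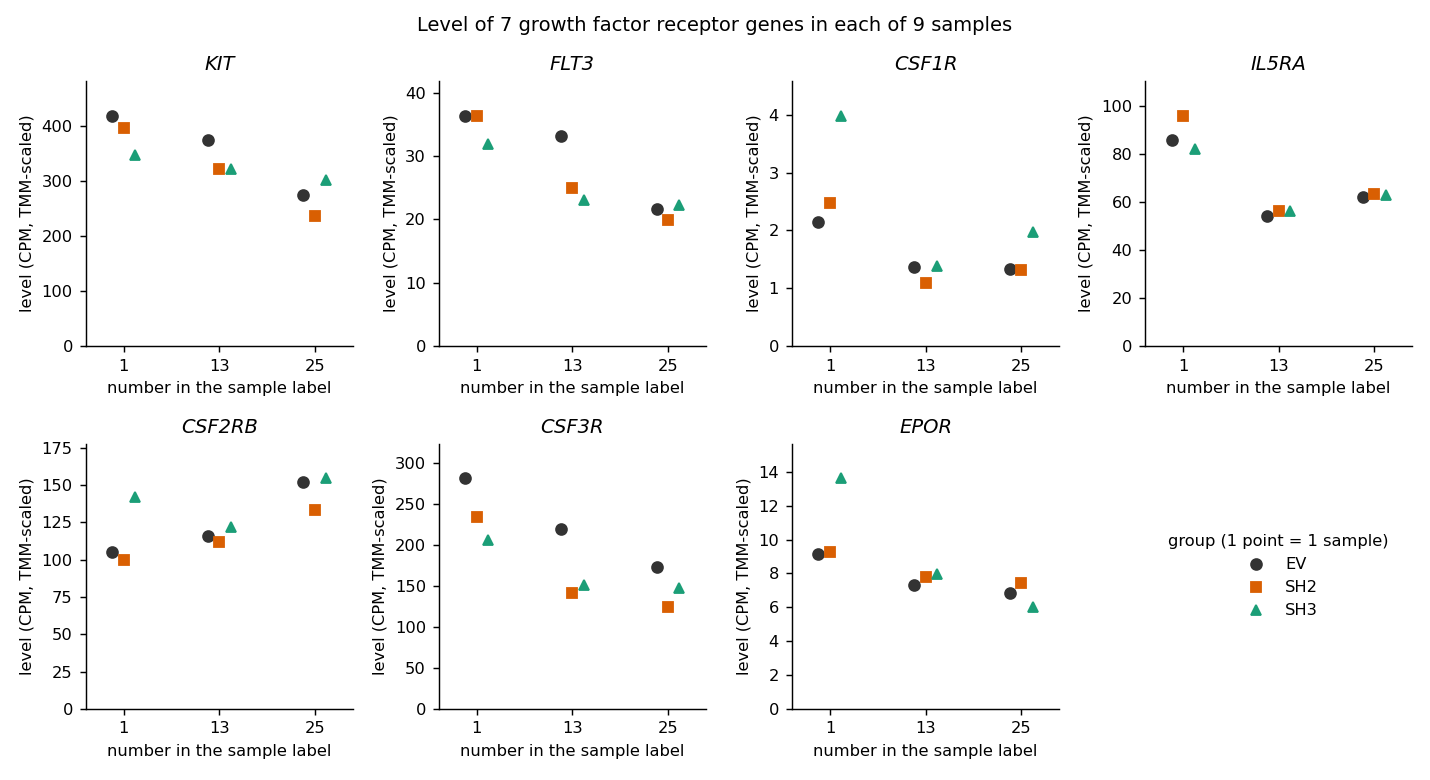
Level of the 7 tested receptor genes in each of the 9 samples, in TMM-scaled CPM on a linear axis from 0, against the number in the sample label, with 1 point per sample and a colour and shape per group. CSF3R lies below EV at each number in SH2 and SH3, and KIT, FLT3, CSF1R, IL5RA, CSF3R and EPOR are highest at number 1 in every group.

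KIT (NM_000222; chr4:55523434-55606949, plus strand) was at 419, 375 and 274 CPM in EV, at 397, 322 and 237 in SH2 and at 348, 322 and 303 in SH3. The 3 groups overlapped, and the spread within EV exceeded the difference between the group means of 356 (EV), 319 (SH2) and 324 (SH3). The log2 fold change for the mean of both shRNAs was -0.15 (SE 0.17, edgeR adjusted p = 0.954), and with the block -0.14 (SE 0.08, edgeR adjusted p = 0.371). With 1 sample left out it ranged from -0.30 (without EV number 25) to -0.015 (without EV number 1), or from -0.21 to -0.095 with the block. KIT was below the EV sample of the same number in 3 of 3 pairs of SH2 and in 2 of 3 of SH3.

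FLT3 (NM_004119; chr13:28577411-28674729, minus strand) followed the same order, at 36.4, 33.2 and 21.6 CPM in EV, 36.3, 24.9 and 19.8 in SH2, and 31.9, 23.1 and 22.2 in SH3. These groups overlapped as well. The log2 fold change for the mean of both shRNAs was -0.21 without the block (SE 0.22, edgeR adjusted p = 0.948) and with it (SE 0.09, edgeR adjusted p = 0.238). With 1 sample left out it ranged from -0.40 (without EV number 25) to -0.056 (without EV number 1), or with the block from -0.28 (without EV number 25) to -0.068 (without EV number 13).

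CSF1R (NM_001288705; chr5:149432854-149492935, minus strand) was at 2.15, 1.36 and 1.33 CPM in EV, 2.48, 1.10 and 1.32 in SH2, and 3.98, 1.39 and 1.97 in SH3. SH3 was above EV at each number and SH2 at 1 of 3. The difference of SH3 from EV, 0.59 on the log2 scale (SE 0.44, edgeR adjusted p = 0.971), did not pass, nor did the blocked 0.54 (SE 0.20, edgeR adjusted p = 0.203). It was 0.038 without SH3 number 1, or 0.37 with the block and without that sample.

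The beta chain CSF2RB (NM_000395; chr22:37309670-37336481, plus strand) was at 105, 116 and 152 CPM in EV, 99.5, 112 and 134 in SH2, and 142, 122 and 155 in SH3. Every SH2 sample lay below and every SH3 sample above the EV sample of its number, while the groups as a whole overlapped. The difference between the shRNAs was 0.28 on the log2 scale (SE 0.16, edgeR adjusted p = 0.998), or 0.29 with the block (SE 0.09, edgeR adjusted p = 0.258), and passed neither way. Without SH3 number 1 the blocked difference was 0.16.

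IL5RA (NM_000564; chr3:3108008-3168297, minus strand) was at 85.7, 54.0 and 62.1 CPM in EV, 95.8, 56.0 and 63.4 in SH2, and 82.0, 56.1 and 62.8 in SH3. At numbers 13 and 25 the knockdown samples were at 101% to 104% of the EV level, and all groups overlapped. The log2 fold change for the mean of both shRNAs was 0.043 (SE 0.21, edgeR adjusted p = 0.992), and -0.048 without SH3 number 1. With the block these values were 0.043 (SE 0.06, edgeR adjusted p = 0.713) and 0.067.

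EPOR (NR_033663; chr19:11487883-11495018, minus strand) was at 9.16, 7.31 and 6.84 CPM in EV, 9.24, 7.77 and 7.42 in SH2, and 13.6, 7.94 and 6.04 in SH3, with 166 to 400 counts. Its log2 fold change was 0.15 for the mean of both shRNAs (SE 0.24, edgeR adjusted p = 0.973) and -0.047 without SH3 number 1, the highest of the 9 samples. With the block these values were 0.14 (SE 0.13, edgeR adjusted p = 0.594) and 0.013.

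**Figure D2:**
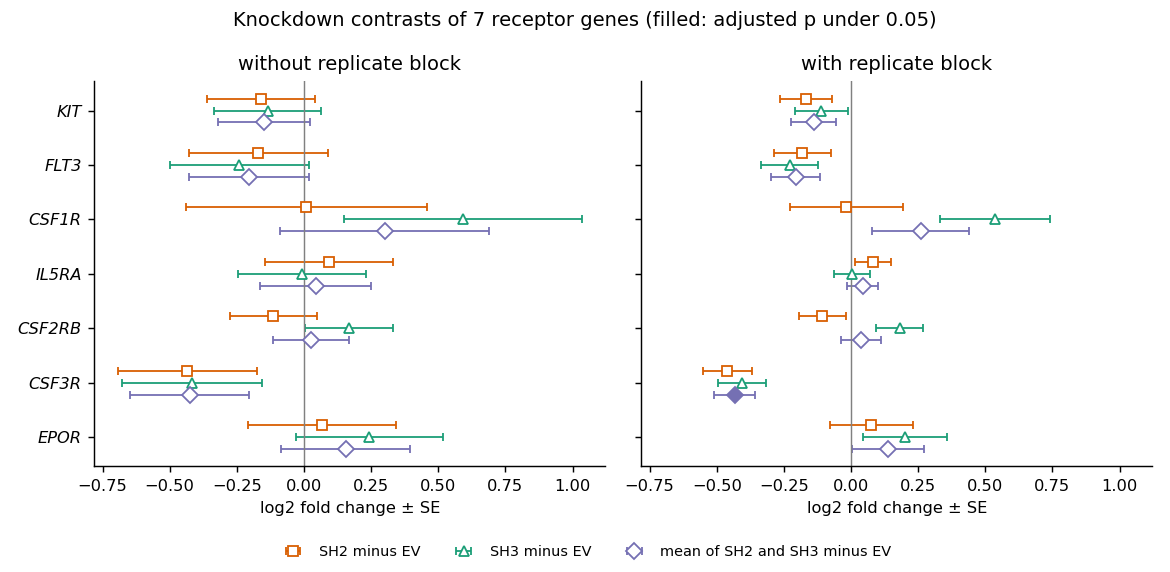
Log2 fold change with its SE for the 7 receptors in SH2 against EV, SH3 against EV and the mean of both against EV, without the replicate block on the left and with it on the right. Filled symbols mark an edgeR adjusted p under 0.05, which CSF3R alone reaches, at -0.43 with the block for the mean of both.

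**Figure D3:**
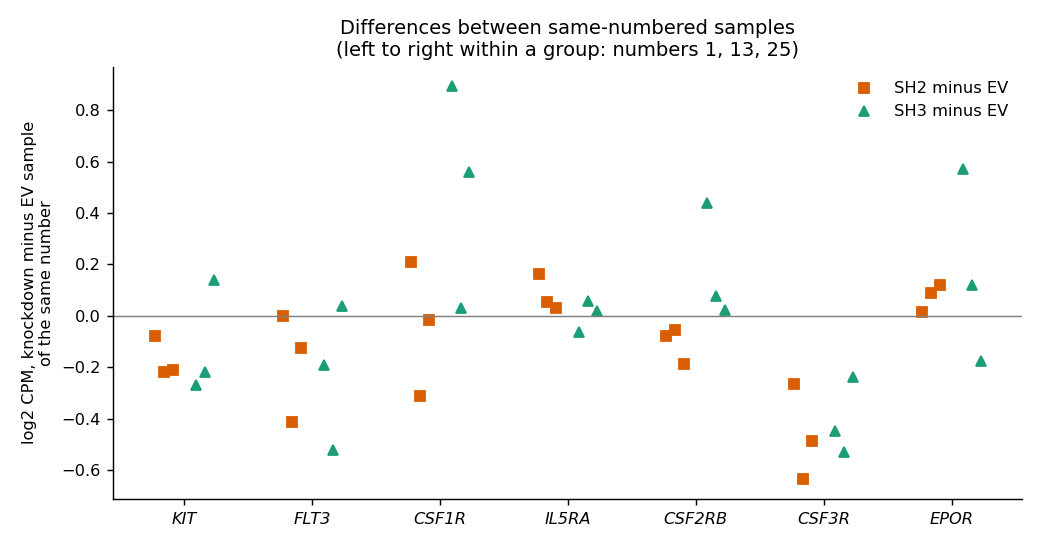
Difference in log2 CPM between each knockdown sample and the EV sample of the same number, with 3 points per shRNA and gene. All 6 points of CSF3R lie below 0, and those of CSF2RB lie below 0 for SH2 and above 0 for SH3.

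Around the receptors, no gene of the other lists passed the edgeR test without the block. These lists hold 9 ligands, 16 other growth factor and cytokine receptors, 26 signal transducers and 16 negative regulators, of which 3, 10, 26 and 16 were tested. With the block 2 genes were lower in the mean of both shRNAs, beside 0.845% of all genes called lower. These were 1 of 10 other receptors and 1 of 26 transducers. JAK1, a Janus kinase of many cytokine receptors, was at 156, 148 and 134 CPM in EV, 124, 123 and 116 in SH2, and 117, 108 and 111 in SH3. All 6 knockdown samples were below all EV samples, and the blocked log2 fold change was -0.33 (SE 0.06, edgeR adjusted p = 0.0379). IL6ST, the signalling chain gp130 of the IL-6 family, was at 38.2, 38.4 and 35.6 CPM in EV, 28.6, 27.6 and 32.2 in SH2, and 30.8, 26.6 and 30.7 in SH3, again without overlap, at -0.35 (SE 0.07, edgeR adjusted p = 0.0488). JAK1 was also called in SH3 against EV, at -0.38 (SE 0.07, edgeR adjusted p = 0.0409), where 0.416% of all genes were called. DESeq2 called JAK1 without the block as well, in SH3 against EV (-0.38, DESeq2 adjusted p = 0.0201) and in the mean of both (-0.33, DESeq2 adjusted p = 0.0225), but not IL6ST (-0.35, DESeq2 adjusted p = 0.0914). The length correction within the blocked fit ended these calls, with -0.28 for JAK1 (edgeR adjusted p = 0.0624) and -0.21 for IL6ST (edgeR adjusted p = 0.214) in the mean of both, and -0.34 for JAK1 in SH3 (edgeR adjusted p = 0.0510). With the block and 1 sample left out, JAK1 in the mean of both was kept in 2 of 9 fits, those without SH3 number 1 or 13, and IL6ST in 1, that without SH3 number 1, with adjusted p up to 0.234 and 0.309.

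The transducers as a list leaned low: 6 of 26 had a positive log2 fold change in the mean of both shRNAs, beside 7532 of all 14199 genes. Their median was -0.13, beside 0.012 over all genes, and JAK1 was the only one called with the block. The 26 genes were measured in the same samples, so they are not independent of each other. These list values are without the length correction, under which no list median was taken. The negative regulators were split 8 to 8 around a median of 0.013. KITLG was at 2.50, 3.78 and 3.83 CPM in EV, 3.05, 4.11 and 3.95 in SH2, and 1.77, 3.21 and 2.66 in SH3. SH3 was lowest at each number, but the difference of SH3 from SH2 did not pass, at -0.54 on the log2 scale (SE 0.27, edgeR adjusted p = 0.998) or -0.55 with the block (SE 0.16, edgeR adjusted p = 0.219).

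The numbers themselves went with larger differences than the shRNAs. In the fit with number and group as terms, 6 of the 7 tested receptors were higher at number 1 than in the mean of numbers 13 and 25, in a comparison in which 46.3% of all genes were called and 24.1% were called higher and 22.2% lower. The median log2 fold change of the tested receptors was 0.55, beside 0.0074 over all genes. What the number stands for is unknown, so a biological and a technical difference cannot be told apart.

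CSF1R differed most, with 2.87 CPM ± 0.980 (SD, n = 3) at number 1, 1.28 ± 0.161 at 13 and 1.54 ± 0.370 at 25. Each SD of a number is over 1 sample of each group, so it includes differences between the groups. The log2 fold change of CSF1R was 1.00 (SE 0.17, edgeR adjusted p = 0.00147). CSF3R followed with 241 ± 38.1, 171 ± 42.4 and 148 ± 24.9 CPM, at 0.61 (SE 0.08, edgeR adjusted p = 0.000448). IL5RA was at 87.9 ± 7.15, 55.3 ± 1.20 and 62.7 ± 0.655 CPM, at 0.57 (SE 0.06, edgeR adjusted p = 0.000174). In IL5RA and CSF1R all 3 samples of number 1 lay above the other 6.

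The other 3 shifts were of similar size. EPOR was at 10.7 ± 2.55, 7.67 ± 0.323 and 6.77 ± 0.690 CPM, at 0.55 (SE 0.13, edgeR adjusted p = 0.0068), also without overlap. FLT3 was at 34.8 ± 2.57, 27.1 ± 5.38 and 21.2 ± 1.26 CPM, at 0.54 (SE 0.09, edgeR adjusted p = 0.00138). KIT was at 388 ± 36.4, 340 ± 30.6 and 271 ± 33.0 CPM, at 0.36 (SE 0.08, edgeR adjusted p = 0.0066). In KIT, FLT3 and CSF3R 2 of the 3 samples of number 1 lay above all others. All 6 calls held in each of the 9 fits that left out 1 sample. Without SH3 number 1, CSF1R was at 0.85 and EPOR at 0.33.

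CSF2RB went the other way, with 116 ± 23.3 CPM at number 1, 117 ± 5.28 at 13 and 147 ± 11.5 at 25. The log2 fold change was -0.19 (SE 0.08, edgeR adjusted p = 0.0622) and did not pass. Without SH3 number 1 it was -0.32 (edgeR adjusted p = 0.00124), and it also passed without SH3 number 13 (-0.22, edgeR adjusted p = 0.0382) or 25 (-0.24, edgeR adjusted p = 0.0493).

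**Figure D4:**
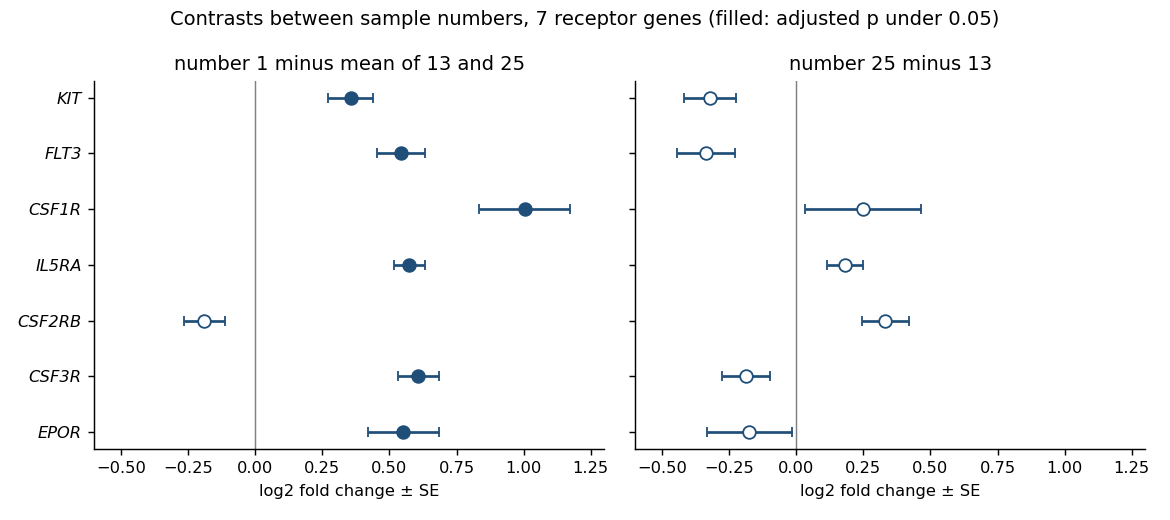
Log2 fold change with its SE of the 7 receptors for number 1 against the mean of 13 and 25 (left) and for number 25 against 13 (right), from the fit with a group term. Filled symbols mark an edgeR adjusted p under 0.05: 6 receptors are higher at number 1, from 0.36 for KIT to 1.00 for CSF1R, and none is called between 25 and 13.

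Between numbers 25 and 13, no receptor passed with edgeR, where 5.87% of all genes were called. At an unadjusted p under 0.05 there were 4 of 7, against 23.8% of all genes: KIT (-0.32, SE 0.10, edgeR adjusted p = 0.0796) and FLT3 (-0.34, SE 0.11, edgeR adjusted p = 0.0902) were lower at 25, and CSF2RB (0.33, SE 0.09, edgeR adjusted p = 0.0524) and IL5RA (0.18, SE 0.07, edgeR adjusted p = 0.139) were higher. DESeq2 called KIT and CSF2RB (DESeq2 adjusted p = 0.0233 and 0.0113). Without SH3 number 1, edgeR called these 4, with adjusted p from 0.00113 for CSF2RB to 0.0342 for IL5RA, in a fit that called 19.2% of all genes, 2750 against 833 with all samples. In all 3 groups CSF2RB was highest at number 25, where KIT, FLT3, CSF3R and EPOR were lowest.

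The receptors fell into partly shared patterns over the 9 samples. Pearson's r of log2 CPM, given as a description since the samples share groups and numbers, was 0.94 between KIT and FLT3, 0.92 between FLT3 and CSF3R and 0.87 between KIT and CSF3R. CSF1R went with IL5RA (0.80) and EPOR (0.77) more than with KIT (0.46). CSF2RB ran opposite to KIT (-0.69) and FLT3 (-0.67).

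Among all tested genes, those most like each receptor over the 9 samples were RTN4R, PTPRA and PRDM10 for KIT (r = 0.97 for each), ZSCAN9, PYGO2 and FAM65B for FLT3 (0.97 to 0.98), CYP51A1, SRSF5 and HSD17B7 for CSF1R (0.99 for each), and FAM43B, RAP2A and PHF6 for IL5RA (0.95 to 0.98). For CSF3R they were MEF2C, AKAP13 and HPGDS (0.96 to 0.97), and for EPOR ACSM3, CSN1S1 and NATD1 (0.97 to 0.98). CSN1S1 had a mean of only 0.552 CPM. All these genes were picked as the highest of 14199 over 9 samples, so a high r follows in part from the choice. For CSF2RB they were C10orf55, DIAPH2 and PLAU (0.96 to 0.98). C10orf55 (chr10:75669727-75682535, minus strand, GRCh37) overlaps PLAU (chr10:75668935-75677254, plus strand), and in unstranded libraries their reads cannot be told apart.

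Of the genes around the receptors, 1 of 3 tested ligands, 5 of 10 other receptors, 10 of 26 transducers and 8 of 16 negative regulators were called at number 1, beside 46.3% of all genes, so the lists were close to or below that share. Among the ligands KITLG was called, lower at number 1 (-0.57, SE 0.14, edgeR adjusted p = 0.00727), opposite to its receptor KIT, and number 1 was the lowest sample of each group. Of 10 tested other receptors, 4 were higher and 1 was lower at number 1, with a median of 0.13 over the 10. IL6R, the alpha chain for IL-6, was at 26.4, 24.3 and 21.2 CPM at number 1 in EV, SH2 and SH3 and between 8.28 and 16.1 in the other samples, which is 1.05 on the log2 scale (SE 0.10, edgeR adjusted p = 0.000159). IL2RA (0.97) and IL2RG (0.71), the alpha and common gamma chains for IL-2, were higher as well. IL2RA was at 139 CPM in SH3 number 1, against 59.2 and 72.3 at number 1 in EV and SH2, and its difference was 0.58 without SH3 number 1 (edgeR adjusted p = 0.00053). INSR, the insulin receptor, was higher by 0.23 and the IL-4 receptor IL4R lower, at -0.23. The INSR call was lost in 7 of the 9 fits that left out 1 sample (edgeR adjusted p up to 0.127, without SH3 number 1), and that of IL4R without EV number 1 (-0.20, edgeR adjusted p = 0.0505).

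Of the 26 transducers, 5 were higher and 5 lower at number 1, beside 24.1% and 22.2% of all genes, with a median of 0.08. SOS1, the exchange factor that activates RAS behind GRB2, fell by 0.63 on the log2 scale (SE 0.07, edgeR adjusted p = 0.000268), from 280 to 363 CPM at numbers 13 and 25 to 184 to 233 at number 1. JAK3, the kinase bound to IL2RG (0.78), the adaptor GAB1 (0.42) and the transcription factor STAT5B (0.33) were higher.

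Of the 16 negative regulators, 6 were higher and 2 lower, beside the same 24.1% and 22.2%, with a median of 0.09. CBLB, a ubiquitin ligase of the CBL family, was higher by 0.74 (SE 0.12, edgeR adjusted p = 0.00109), and so were CISH (0.51) and SOCS2 (0.43), STAT5 target genes that dampen cytokine signals, and the phosphatase INPP5D (0.30). SH2B3, the adaptor LNK that restrains JAK2 and KIT, fell by 0.38 on the log2 scale (SE 0.06, edgeR adjusted p = 0.000875).

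Between numbers 25 and 13, 2 of 16 negative regulators and 3 of 26 transducers were called, beside 5.87% of all genes. No tested ligand or other receptor was called. The largest difference in these lists was that of SOCS3, an inhibitor of the G-CSF and IL-6 receptors. It was at 10.4, 10.02 and 16.4 CPM at number 25 in EV, SH2 and SH3 and at 4.18, 4.83 and 3.58 at number 13, without overlap, which is 1.52 on the log2 scale (SE 0.18, edgeR adjusted p = 0.00326). This call held in all 9 fits that left out 1 sample. CISH was higher too (0.45, edgeR adjusted p = 0.0328), and PIK3R1, the regulatory subunit of PI3 kinase (-0.39), STAT5A (-0.26) and the adaptor GAB3 (-0.28) were lower. These 4 calls were close to the limit: CISH was kept in 4, PIK3R1 in 3, STAT5A in 3 and GAB3 in 2 of the 9 fits, with adjusted p up to 0.170 (CISH) and 0.181 (PIK3R1) without SH2 number 25, 0.237 (STAT5A) without EV number 25 and 0.224 (GAB3) without SH2 number 13.

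**Figure D5:**
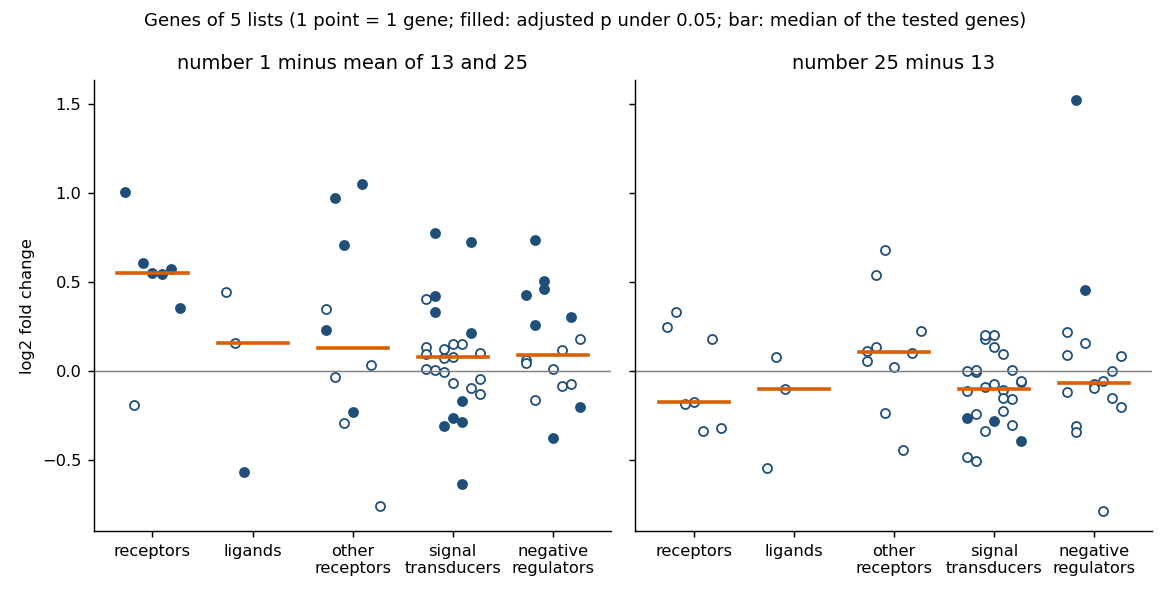
Log2 fold change of each tested gene in 5 lists for number 1 against the mean of 13 and 25 (left) and number 25 against 13 (right), with 1 point per gene, filled at an edgeR adjusted p under 0.05, and a bar at the median. The receptors sit highest on the left, with a median of 0.55, and SOCS3 stands alone at 1.52 on the right.

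The markers of other cell types were also higher at number 1 in sum. The summed level of the 9 markers was 3.28 to 4.05 CPM at number 1 and 1.82 to 2.22 CPM at numbers 13 and 25, nearly all of it PECAM1 with 48 to 122 counts, an adhesion molecule of endothelium that myeloid cells also carry. PECAM1 was higher at number 1 by 0.88 on the log2 scale (SE 0.13, edgeR adjusted p = 0.000976). Of the 8 tested markers of the myeloid line, 1 was called higher and 1 lower, beside 24.1% and 22.2% of all genes, with a median of -0.037. The higher one was the leukocyte antigen PTPRC, at 0.75 (SE 0.11, edgeR adjusted p = 0.000966). The part of other cells in the receptor differences was not tested.

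The rows of IL5RA show 1 more difference between the numbers. The gene has a long row, NM_000564, and shorter rows such as NM_175724 that cover part of it. The shorter row held 42.5% to 44.6% of the count of the long one in the samples of number 1, and 49.9% to 54.7% in the other 6, without overlap. Counts over rows that share reads are no measure of isoforms, and this is a description with no test. For CSF3R the corresponding share of NM_172313 overlapped between the numbers. By group it was 91.6% to 92.3% in EV and 89.7% to 91.5% in the knockdown samples, without overlap, which was not tested either.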

How the data were processed

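Unstranded poly(A) libraries of 9 SKNO-1 samples were prepared with a TruSeq kit, per the labels and the study's methods. The labels' extraction text is written for sorted bone marrow cells, while their cell line field and titles name SKNO-1, which was used. The deposited values are raw read counts made by the authors, 1 per RefSeq row for 48104 rows on hg19; their processing notes name STAR, featureCounts and DESeq2, without versions or roles. Rows of 1 gene share reads, so the row with the highest total stood for each of 25680 symbols (9509 had more than 1 row). Counts were fitted with edgeR 4.0.16 (R 4.3.3; TMM, quasi-likelihood test, genes with at least 10 counts by its filter, total 15), with Benjamini-Hochberg adjustment over 14199 genes at 0.05; knockdown fits had group alone (6 residual degrees of freedom) or number as a replicate block (4), and number contrasts had a group term. CPM were TMM-scaled.

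The numbers come from the sample titles. Deviations of same-numbered samples from their group means had r of 0.398 to 0.731 in 9 pairs (mean 0.598), so the numbers pair the samples. No 2 samples of a group agreed within sampling noise. DESeq2 1.42.0, RLE scaling, no filter, summed rows, a length correction (12338 genes), samples numbered 13 and 25 only and leaving out each sample were tried. The fits were tested on simulated data. Named genes are all 9 receptors, up to 5 called genes with the smallest adjusted p per list and contrast, the ligands, the pseudoautosomal genes and the 3 genes most correlated with each receptor; 1 gene that the rule names is not reported here, and the members and lists were chosen with earlier results of these data known. Gene positions and canonical lengths are from GENCODE v44 on GRCh37, promoters from RefSeq on GRCh38.p14. A count of 3, used as the detection floor, is 0.0847 to 0.108 CPM and covers counting error only.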

Additional observations from a re-analysis of the deposited data

Results flagged for a closer look

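CSF2RB, the beta chain shared by the receptors for GM-CSF, IL-3 and IL-5, stood out because its SH2 samples and its SH3 samples lay on opposite sides of EV when compared by number, although neither shRNA's difference from EV passed (with the replicate block -0.11, edgeR adjusted p = 0.533, in SH2 and 0.18, edgeR adjusted p = 0.292, in SH3). It was below the EV sample of the same number in all 3 SH2 samples, at 94.7%, 96.3% and 87.8% of it, and above in all 3 SH3 samples, at 136%, 105% and 102%. The difference of SH3 from SH2 was 0.28 on the log2 scale (SE 0.16) and was tested as a contrast of its own: it did not pass, with an edgeR adjusted p of 0.998, or 0.258 with the replicate block (0.29, SE 0.09). With the samples numbered 13 and 25 alone the blocked value was 0.17 (edgeR adjusted p = 0.412).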

How the results depend on the processing

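Of 335 values of receptor fold changes under other settings, not counting samples left out, 302 kept their direction and side of the threshold, as did 558 of 630 with 1 sample left out. The paired analysis, with the replicate block, gave 0, 0, 1 and 0 called receptors in SH2 against EV, SH3 against EV, their mean against EV and SH3 against SH2, against 0 in each without it. DESeq2 with the replicate block, and the block with samples numbered 13 and 25 only, both chosen after seeing the data, each gave 1, 1, 1 and 0, in every case CSF3R. With 1 sample left out, the first 3 counts ranged from 0 to 1 with the block and stayed at 0 without it. For number 25 against 13 the count of 0 became 2 without the filter, 2 with DESeq2, 1 with the length correction, and 0 to 4 with 1 sample left out, 4 being without SH3 number 1. For number 1 against the mean of 13 and 25, CSF2RB also passed without the filter, with DESeq2 and with the length correction, so that 7 receptors were called there.

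The directions that turned were all of values that passed no test. CSF1R in SH2 against EV was -0.018 with the block, -0.0052 with block and length correction, -0.028 with DESeq2 and block, and -0.16 with numbers 13 and 25 only, with or without the block. IL5RA in SH3 against EV was 0.0035 with the block, 0.060 with block and length correction, 0.0029 with DESeq2 and block, 0.034 with numbers 13 and 25 only and 0.035 with the block as well. With numbers 13 and 25 only, without and with the block, EPOR in SH3 against EV was -0.016 and -0.021, EPOR in SH3 against SH2 -0.12 and -0.12, FLT3 in SH3 against SH2 0.014 and 0.022, and CSF2RB in the mean of both -0.041 and -0.036.

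With 1 sample left out, ranges that crossed 0 were -0.42 to 0.27 for CSF1R, -0.25 to 0.061 for CSF2RB, -0.042 to 0.21 for EPOR, -0.17 to 0.31 for IL5RA and -0.35 to 0.0022 for KIT in SH2 against EV. In SH3 against EV they were -0.16 to 0.47 for EPOR and -0.18 to 0.21 for IL5RA. In the mean of both they were -0.081 to 0.20 for CSF2RB, -0.047 to 0.29 for EPOR and -0.092 to 0.26 for IL5RA. In SH3 against SH2 they were -0.15 to 0.35 for CSF3R, -0.22 to 0.41 for EPOR, -0.25 to 0.20 for FLT3, -0.27 to 0.17 for IL5RA and -0.13 to 0.21 for KIT, and for number 25 against 13 -0.29 to 0.018 for EPOR. For the knockdown contrasts these ranges span the fits without and with the block. Without it, a fit that lacks 1 sample has the numbers unevenly spread over the groups. With the block alone, the ranges did not cross 0 for CSF2RB (-0.18 to -0.050), IL5RA (0.024 to 0.11) and KIT (-0.26 to -0.094) in SH2 against EV. Nor did those for EPOR (0.013 to 0.23) and IL5RA (0.014 to 0.067) in the mean of both, or for IL5RA in SH3 against SH2 (-0.11 to -0.021). The cause was not tested.

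Over all genes, the knockdown counts without the block were 0 in edgeR (at most 2 with 1 sample left out) and 21, 19, 44 and 11 in DESeq2. With the block they were 40, 59, 156 and 15 in edgeR, 362, 460, 610 and 144 in DESeq2, and 6, 21, 13 and 7 with the length correction, so the count depends on the tool and on this correction. The genes tested also differed: 14199 in edgeR, 11805 to 12963 in DESeq2 with the block and 12338 with the length correction. The block with samples numbered 13 and 25 only gave 267, 341, 370 and 129. The share of higher calls in the mean of both was 36 of 156 with the block and 9 of 13 with the length correction. For number 25 against 13 the count was 833, or 304 without the group term, and 50 to 2750 with 1 sample left out, the lowest without EV number 25 and the highest without SH3 number 1. CSF1R, with 35 to 117 counts, is the receptor for which depth limits precision most.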
